A study of Mus musculus with 3 samples.

Results

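The keratin genes of the mouse, the genes of epithelial intermediate filaments, were followed in sorted medullary thymic epithelial cells (mTECs), the stromal cells that show peripheral tissue antigens to developing T cells. The members were all genes on the array whose symbol begins with Krt and a digit, which leaves out the keratin-associated protein genes (Krtap). There were 52 such genes of 19937 genes with a probe set of their own, 28 of type I and 24 of type II. All 52 matched RefSeq by Entrez identifier with the same symbol. The study set 3 libraries side by side. WT was Sirt1fl/fl, Sirt1cKO was Sirt1fl/fl with Foxn1-Cre, which removes the floxed gene in thymic epithelium, and AireKO was Aire–/–, a germline deletion. The floxed Sirt1 allele was thus shared by WT and Sirt1cKO and is not named for AireKO. All were labelled strain C57b/6, aged 6 weeks, and each library came from typically 3 pooled mice. Cells were sorted as EpCAM+, CD45-, Ly51low and MHC-II high, and their RNA was amplified and read on Affymetrix Mouse Gene 1-ST arrays, to ask whether Sirt1, a deacetylase, acts with Aire, the transcriptional regulator that drives peripheral antigen expression in these cells.

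Each genotype had 1 library, so no difference below has a replicate check or a p-value, and every difference describes a pair of libraries, not the conditions. The free-text descriptions of the AireKO and Sirt1cKO samples name each other's genotype. Aire stood at log2 intensity 11.97 in WT, 11.55 in AireKO and 11.24 in Sirt1cKO, and Sirt1 at 11.40, 11.42 and 11.27, so neither probe set checks the labels. AireKO, Sirt1cKO and WT below therefore mean the libraries so labelled. Of the sex-linked genes, Xist was within background in AireKO (6.75) but not in Sirt1cKO (11.46) or WT (12.17), and Eif2s3y, on the Y chromosome, was within background in WT (4.23) but not in Sirt1cKO (8.92) or AireKO (9.75). C57BL/6 mice do not transcribe the class II gene H2-Ea, which stood at 13.23 in AireKO and within background in the others (5.60 in WT, 5.90 in Sirt1cKO). Sex of the pooled mice, genetic background and genotype cannot be told apart here, and the part of the first 2 in the keratin values was not tested. All 14 markers of mature mTECs, among them Epcam, Cd74 and Fezf2, were above background in all 3 libraries.

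Keratin filaments are built from dimers of an acidic type I and a basic type II chain, so every epithelium makes at least a pair of them. Which pair is made marks the kind of epithelium and its layer: Krt8 with Krt18 in simple epithelia, Krt5 with Krt14 in the basal layer of stratified epithelia, Krt1 with Krt10 in the layers above, and a large set of hard keratins in hair and nail. In the thymus, Krt5 and Krt14 mark much of the medulla and Krt8 and Krt18 the cortex and part of the medulla, while some mature medullary cells take on features of skin, gut or other peripheral epithelia and make their keratins.

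Across all 52 keratins, 17 were at least 2-fold lower in AireKO than in WT (32.7%), against 5.51% of all 19937 genes. None was at least 2-fold higher, where 3.2% of all genes were. The median keratin difference on the log2 scale was -0.75, and the median of all genes was 0.02. The 17 were Krt1, Krt4, Krt5, Krt7, Krt10, Krt15, Krt16, Krt17, Krt19, Krt23, Krt24, Krt71, Krt73, Krt75, Krt76, Krt84 and Krt86. In Sirt1cKO, 4 keratins were at least 2-fold lower than in WT (7.69%), Krt7, Krt16, Krt73 and Krt75, against 1.13% of all genes. None was at least 2-fold higher, where 0.582% of all genes were. The median keratin difference was -0.33, the range ran from -1.26 for Krt7 to 0.31 for Krt222, and the median of all genes was 0.00. Both comparisons use the same WT library, and Sirt1cKO against AireKO is the difference between them. In that last comparison 5 keratins were at least 2-fold higher in Sirt1cKO, Krt1, Krt19, Krt76, Krt78 and Krt84, against 1.74% of all genes, and none was at least 2-fold lower, where 1% of all genes were. The median keratin difference there was 0.20, against -0.02 for all genes, and came to 0.0227 with centring. With background as a bound it came to -0.00996, against -0.199 for all genes. At that step a gene within background in both libraries enters as the difference between their background levels, so this median is not a bound. In a bulk library, fewer cells of a type and less RNA per cell cannot be told apart.

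**Figure D1:**
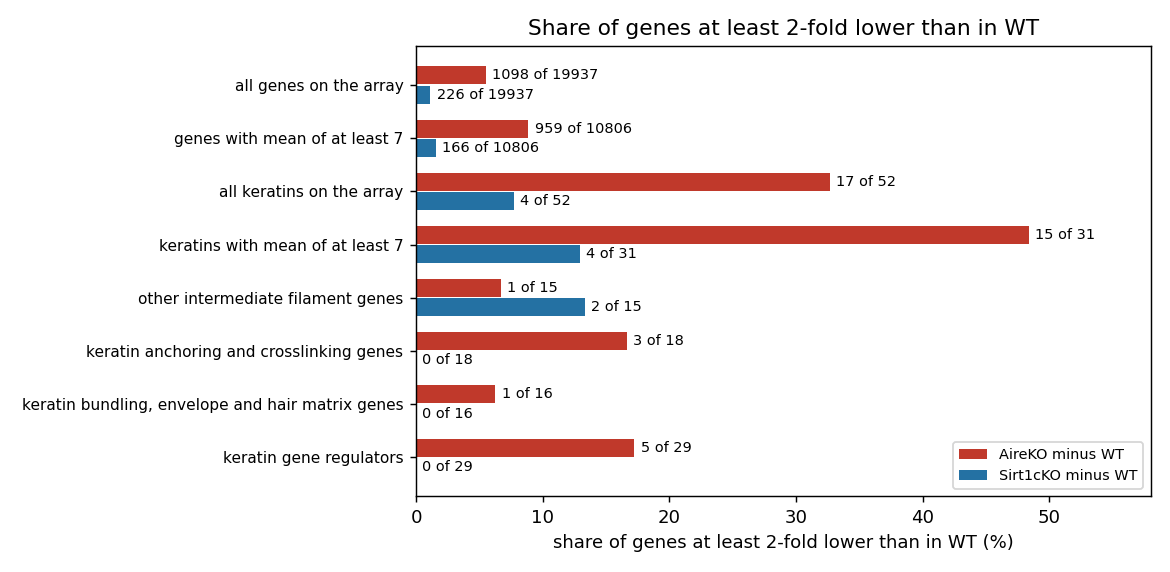
Share of genes at least 2-fold lower than in WT, in percent, for the libraries labelled AireKO (red) and Sirt1cKO (blue), with the count beside each bar. The bar of all keratins reaches 17 of 52 in AireKO and 4 of 52 in Sirt1cKO, and that of all genes 1098 of 19937 and 226 of 19937.

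The share of genes called differed with brightness, so the keratins were also set beside genes of like brightness. Over genes with a mean over the libraries of at least 7, a limit chosen after the data were seen, the shares were 8.87%, 1.54% and 2.89% of 10806 genes, beside 15, 4 and 5 of 31 keratins. The median difference of those 31 was -0.98 in AireKO against -0.22 for the genes of that range, and -0.45 against -0.08 in Sirt1cKO. Of the 21 keratins with a mean under 7, 2 were lower in AireKO, Krt4 and Krt86, against 1.52% of the 9131 genes of that range, and neither counted with background as a bound. A filter that keeps a gene whose highest library passes log2 6.81, the median of all values, kept 38 keratins and 12556 genes. It lets a gene in through the library where it is high, so nothing is read from its counts, which were 16 keratins lower in AireKO (8.46% of the genes kept), 4 lower in Sirt1cKO (1.68%) and 5 higher in Sirt1cKO than in AireKO (2.72%).

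Part of the count rests on dim values. Background was taken in each library as the 95th percentile of 1027 olfactory receptor genes, few of which are active outside the olfactory epithelium. It lay at 6.02 in WT, 6.89 in AireKO and 6.34 in Sirt1cKO. By this measure 43 keratins were above background in WT (82.7%, against 72.7% of all genes), 30 in AireKO (57.7% against 56.1%) and 38 in Sirt1cKO (73.1% against 67.1%). Above background in all 3 libraries were 29 keratins, in at least 1 but not all 14, and in none 9: Krt2, Krt26, Krt28, Krt31, Krt32, Krt39, Krt40, Krt74 and Krt86. Where values within background count only as bounds, 12 keratins were at least 2-fold lower in AireKO, against 4.62% of all genes. The 5 that no longer counted were Krt4, Krt15, Krt24 and Krt71, which were within background in AireKO, and Krt86, which was within background in all 3. The same step left the 4 keratins of Sirt1cKO in place, as each was above background in WT and in Sirt1cKO, and 3 of the 5 keratins higher in Sirt1cKO than in AireKO, without Krt76 and Krt84.

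The scaling of the libraries bears on the counts too. Setting the median of the genes past the filter to be equal in all libraries moved every AireKO difference up by 0.27 and every Sirt1cKO difference up by 0.10. With it, 8 of 52 keratins were at least 2-fold lower in AireKO, namely Krt1, Krt4, Krt7, Krt17, Krt19, Krt75, Krt76 and Krt84, none was higher, and the median of the 52 was -0.48. Over all genes the split turned from 1098 lower and 638 higher to 561 lower (2.81%) and 1571 higher. Quantile normalization (4.67% of all genes lower) and loess (4.28%) each gave 15 of 52 lower, without Krt5, Krt10, Krt16 and Krt23 and with Krt13 and Krt36. Krt16 was no longer called in Sirt1cKO under any of the 3 scalings, and centring also ended the call of Krt78 between the knockout libraries.

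**Figure D2:**
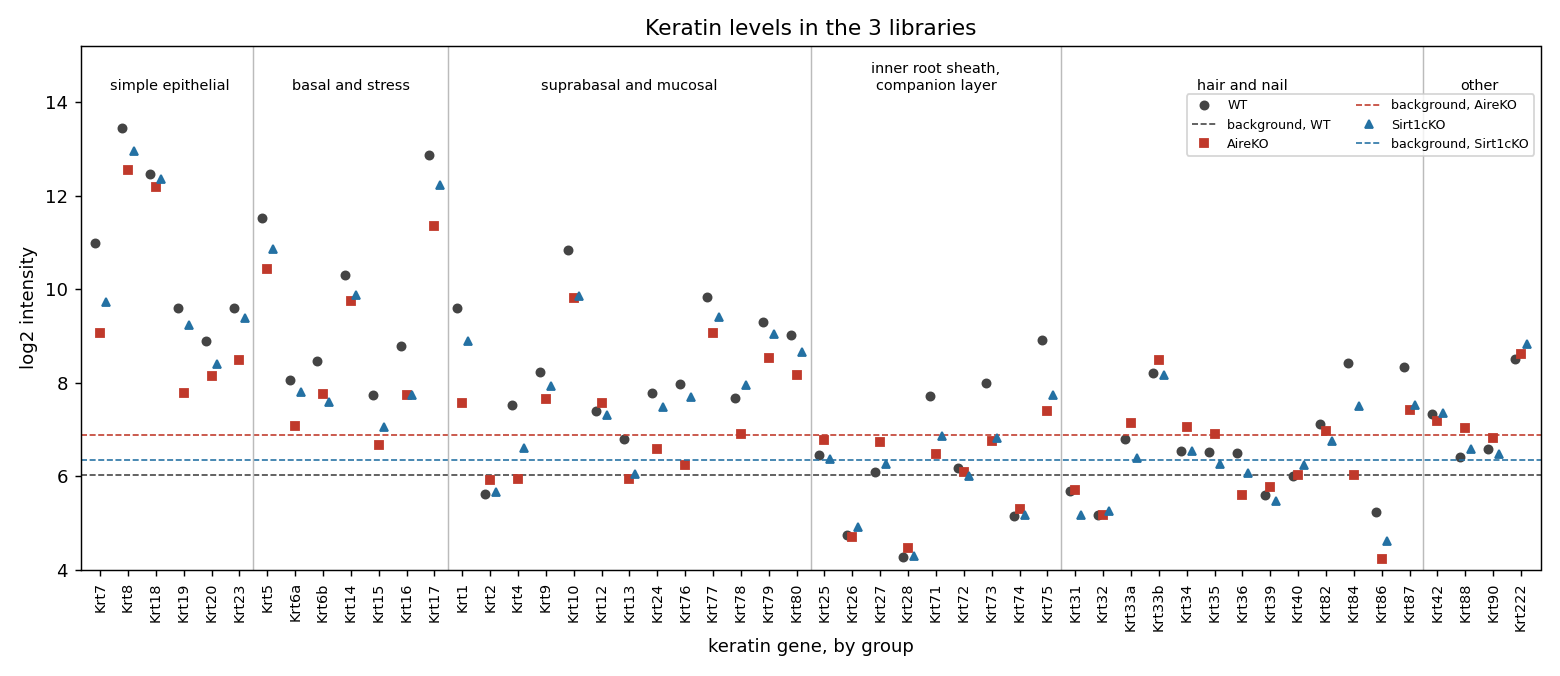
Log2 intensity of each of the 52 keratins in WT (black circles), AireKO (red squares) and Sirt1cKO (blue triangles), grouped by where the keratin is made, 1 library per genotype. Dashed lines mark the background of each library, at 6.02 in WT, 6.89 in AireKO and 6.34 in Sirt1cKO, and points under a library's line are within its background.

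The stretch before the transcription start is shown for 6 keratins whose level was under that of WT in both knockout libraries. Starts with and without the letters TATAAA, a form of the TATA box, can so be set side by side. Other forms of the TATA box were not searched for, so a start without these letters may still have one. Sequences are from RefSeq (GRCm38.p6), whose promoter table matched 36 of the 52 keratins with 37 entries. Each line gives the 100 bases before the start, 5′ to 3′ on the gene's strand, with the letters TATAAA in capitals where they occur. Krt10 (suprabasal epidermis), Krt73 (inner root sheath of the hair) and Krt76 (oral epithelium) have them.

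Krt10, chr11:99389365-99389464, strand minus: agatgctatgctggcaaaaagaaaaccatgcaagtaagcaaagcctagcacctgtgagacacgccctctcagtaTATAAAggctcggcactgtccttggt

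Krt73, chr15:101802361-101802460, strand minus: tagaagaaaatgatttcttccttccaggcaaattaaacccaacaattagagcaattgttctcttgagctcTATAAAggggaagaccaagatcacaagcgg

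Krt76, chr15:101892921-101893020, strand minus: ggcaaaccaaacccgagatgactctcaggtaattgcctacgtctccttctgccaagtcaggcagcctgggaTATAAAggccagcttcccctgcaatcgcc

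Krt5 (basal layer), Krt7 (ducts and other simple epithelia) and Krt8 (simple epithelia) do not have these 6 letters in the same stretch, which says nothing about the factors that act there.

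Krt5, chr15:101712906-101713005, strand minus: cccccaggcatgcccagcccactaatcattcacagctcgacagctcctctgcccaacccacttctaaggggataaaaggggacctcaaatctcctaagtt

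Krt7, chr15:101412303-101412402, strand plus: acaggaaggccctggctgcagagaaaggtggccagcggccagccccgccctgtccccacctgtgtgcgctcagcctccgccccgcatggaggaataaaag

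Krt8, chr15:102004343-102004442, strand minus: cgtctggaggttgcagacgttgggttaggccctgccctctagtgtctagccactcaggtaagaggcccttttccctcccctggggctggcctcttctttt

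The letters TATAAA begin 26 bases before the start in Krt10, 30 in Krt73 and 29 in Krt76. Searched on the gene's strand with their first base 20 to 40 bases before the start, they were in 13 of 36 keratin genes (36.1%), against 1.99% of 32851 promoters in the table. On either strand anywhere in the 250 bases before the start, they were in 17 of 36 (47.2%), against 12.4%. The 13 were Krt10, Krt12, Krt20, Krt25, Krt26, Krt28, Krt31, Krt32, Krt34, Krt40, Krt71, Krt73 and Krt76, of which 9 belong to the hair groups described below. Their median difference between AireKO and WT was 0.00, with 4 at least 2-fold lower, and that of the other 23 was -0.77, with 6 lower. Between Sirt1cKO and WT the medians were -0.09 and -0.28, with 1 and 2 lower. Of the 13, Krt26, Krt28, Krt31, Krt32 and Krt40 were within background in every library, as were Krt2 and Krt39 of the other 23. The AireKO median of the 13 was the value of Krt32, which stood at 5.16 in both AireKO and WT. These medians thus rest in part on genes within background, and no difference by promoter class is read from them. The AP-1 motif TGANTCA, searched on both strands in the same 250 bases, was in 1 of 36, Krt13, against 6.75% of all promoters.

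The counts of the keratin groups that follow stand beside 5.51% of all genes lower in AireKO and 1.13% in Sirt1cKO. Of the simple epithelial keratins, 3 of 6 were at least 2-fold lower in AireKO, with a median difference of -0.99. All 6 were above background in all libraries. Krt7, made in ducts and other simple epithelia, stood at log2 intensity 10.98 in WT, 9.06 in AireKO and 9.72 in Sirt1cKO. WT was the high library, and the difference was 3.80-fold to AireKO and 2.40-fold to Sirt1cKO. Krt19, a type I keratin of ducts and gland epithelium, stood at 9.59 in WT, 7.77 in AireKO and 9.23 in Sirt1cKO. Here AireKO alone was low, 3.54-fold under WT and 2.75-fold under Sirt1cKO, while Sirt1cKO differed from WT by -0.36 on the log2 scale. Krt23, another type I keratin of this group, had the same order, with 9.58, 8.49 and 9.39 and a 2.13-fold difference between WT and AireKO. Krt8 and Krt18, the basic pair of simple epithelia, were called in neither comparison. Krt8 stood at 13.44, 12.55 and 12.96 and Krt18 at 12.47, 12.19 and 12.36, so both were highest in WT and lowest in AireKO, with differences of -0.89 and -0.28. Krt20, made in gut and urothelium, stood at 8.88, 8.14 and 8.40. In Sirt1cKO the group's median difference from WT was -0.42, and 1 of 6, Krt7, was called.

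Of the basal and stress keratins, 4 of 7 were at least 2-fold lower in AireKO, with a median difference of -1.06, and 1 of 7 in Sirt1cKO, with a median of -0.65. Krt5, the type II keratin of the basal layer and of medullary epithelium, stood at 11.52 in WT, 10.43 in AireKO and 10.86 in Sirt1cKO, a difference of 2.12-fold between WT and AireKO. Its partner Krt14 differed less, with 10.31, 9.74 and 9.86. Krt15, a basal keratin also known from hair follicle stem cells, stood at 7.74 in WT and 7.05 in Sirt1cKO and was within background in AireKO at 6.67, so WT was at least 1.81-fold higher than AireKO. The other 4 keratins of the group are made where epidermis is wounded or stressed and in hair and nail. Krt17 stood at 12.87, 11.35 and 12.23, 2.87-fold lower in AireKO than in WT. Krt16 was low in both knockout libraries, with 8.79 in WT, 7.73 in AireKO and 7.74 in Sirt1cKO, which is 2.09-fold and 2.07-fold under WT. Krt6a and Krt6b had no call. Krt6a stood at 8.06, 7.07 and 7.79, lowest in AireKO, and Krt6b at 8.46, 7.76 and 7.57, lowest in Sirt1cKO. Krt6a and Krt6b are near-identical genes, and Krt14, Krt16, Krt17 and Krt42 are alike over much of their length, so probe sets of these genes may share signal and the split between them is uncertain.

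Among the suprabasal and mucosal keratins, 5 of 13 were at least 2-fold lower in AireKO and none in Sirt1cKO, with medians of -0.84 and -0.30. Krt1, the type II keratin of the upper epidermal layers, stood at 9.60 in WT, 7.56 in AireKO and 8.89 in Sirt1cKO. AireKO was 4.11-fold under WT and 2.52-fold under Sirt1cKO. Its partner Krt10 stood at 10.84, 9.81 and 9.86, with both knockout libraries low and close to each other, 2.05-fold and 1.97-fold under WT. The other members are keratins of mucosal, plantar, corneal and further epithelia. Krt76, of the palate and gums, stood at 7.96 in WT and 7.69 in Sirt1cKO and was within background in AireKO at 6.23, at least 2.11-fold under WT and at least 1.74-fold under Sirt1cKO. Krt4, of the oesophagus, stood at 7.52 in WT and 6.61 in Sirt1cKO and was within background in AireKO at 5.93, at least 1.55-fold under WT. Its partner Krt13 was above background in WT only, at 6.79. Krt24 had 7.77, 6.57 and 7.47, with the AireKO value within background and WT at least 1.84-fold above it. Krt78 was the exception in Sirt1cKO, where it was highest: 7.66 in WT, 6.89 in AireKO and 7.94 in Sirt1cKO, a 2.07-fold difference between the knockout libraries. Krt78 in AireKO lay just above background. Krt77, Krt79, Krt80 and Krt9, the last a keratin of palms and soles, had differences from WT between -0.84 and -0.56 in AireKO and between -0.43 and -0.26 in Sirt1cKO. Krt12, the keratin of the cornea, stood at 7.39, 7.56 and 7.30 and had no call, and Krt2 was within background throughout.

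The hair keratins were mixed. Of the 9 keratins of the inner root sheath and companion layer, 3 were at least 2-fold lower in AireKO and 2 in Sirt1cKO, and 3, Krt26, Krt28 and Krt74, were within background throughout. Krt75, of the companion layer, stood at 8.91 in WT, 7.39 in AireKO and 7.74 in Sirt1cKO, so WT was the high library, by 2.87-fold and 2.24-fold. Krt73, of the inner root sheath, stood at 7.99 in WT and 6.82 in Sirt1cKO, a 2.25-fold difference, and was within background in AireKO at 6.75, at least 2.14-fold under WT. Krt71, also of the inner root sheath, stood at 7.71 in WT and 6.85 in Sirt1cKO and was within background in AireKO at 6.46, at least 1.78-fold under WT. Krt25, Krt27 and Krt72, of the same sheath, lay between 6.00 and 6.78 in all libraries, close to background.

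Of the 13 hair and nail keratins, 2 were at least 2-fold lower in AireKO, Krt84 and Krt86, and none in Sirt1cKO. With background as a bound 1 of 13 counted in AireKO (7.69%), against 4.62% of all genes. Krt84, a hard keratin of the hair and tongue, stood at 8.41 in WT and 7.50 in Sirt1cKO and was within background in AireKO at 6.02. WT was thus at least 2.87-fold and Sirt1cKO at least 1.53-fold above AireKO. Krt86 was within background in all 3 libraries, so it has no fold. Krt87 stood at 8.33, 7.41 and 7.51, highest in WT and without a call. The type I hair keratins Krt33a, Krt33b, Krt34 and Krt35 were each highest in AireKO, by 0.29 to 0.52 over WT. Krt33b, for one, stood at 8.20, 8.49 and 8.17. None of these differences reached 2-fold, and Krt33a and Krt33b are near-identical genes whose probe sets may share signal. Krt33a, Krt34 and Krt35 had means under 7, and all genes of that range had a median difference of 0.23 in AireKO, with 26.7% below 0. Krt36 was above background in WT only, at 6.49, and Krt82, of the hair cuticle, stood at 7.12, 6.97 and 6.75. Of the 13, Krt31, Krt32, Krt39, Krt40 and Krt86 were within background throughout. In Sirt1cKO 10 of 13 were below 0, against 49.5% of all genes. The median of the 13 there was -0.37, and below 0 under all 3 other scalings. With background as a bound it was -0.04, but genes within background in both libraries then entered as the difference of the background limits, 0.32. In AireKO the median of the 13 was 0.00. Its sign followed the scaling (-0.24 with loess, -0.26 with quantile normalization and 0.27 with centring), as did that of the inner root sheath group (-0.04, then -0.33, -0.33 and 0.23). The medians of the simple, basal and suprabasal groups were below 0 in both comparisons under all 3 of these scalings. Between Sirt1cKO and AireKO the medians were 0.54 for the simple, 0.38 for the basal and 0.49 for the suprabasal keratins, each above 0 under all 3 scalings, and -0.22 for the hair and nail keratins, below 0 under all 3. That of the inner root sheath group was -0.10, and 0.08 with quantile normalization and 0.09 with loess.

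The 4 remaining keratins had no call. Krt222 stood at 8.51, 8.60 and 8.82, lowest in WT, and Krt42, a nail keratin, at 7.33, 7.17 and 7.35. Krt88 stood at 6.40, 7.03 and 6.58 and Krt90 at 6.59, 6.82 and 6.47, near background.

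**Figure D3:**
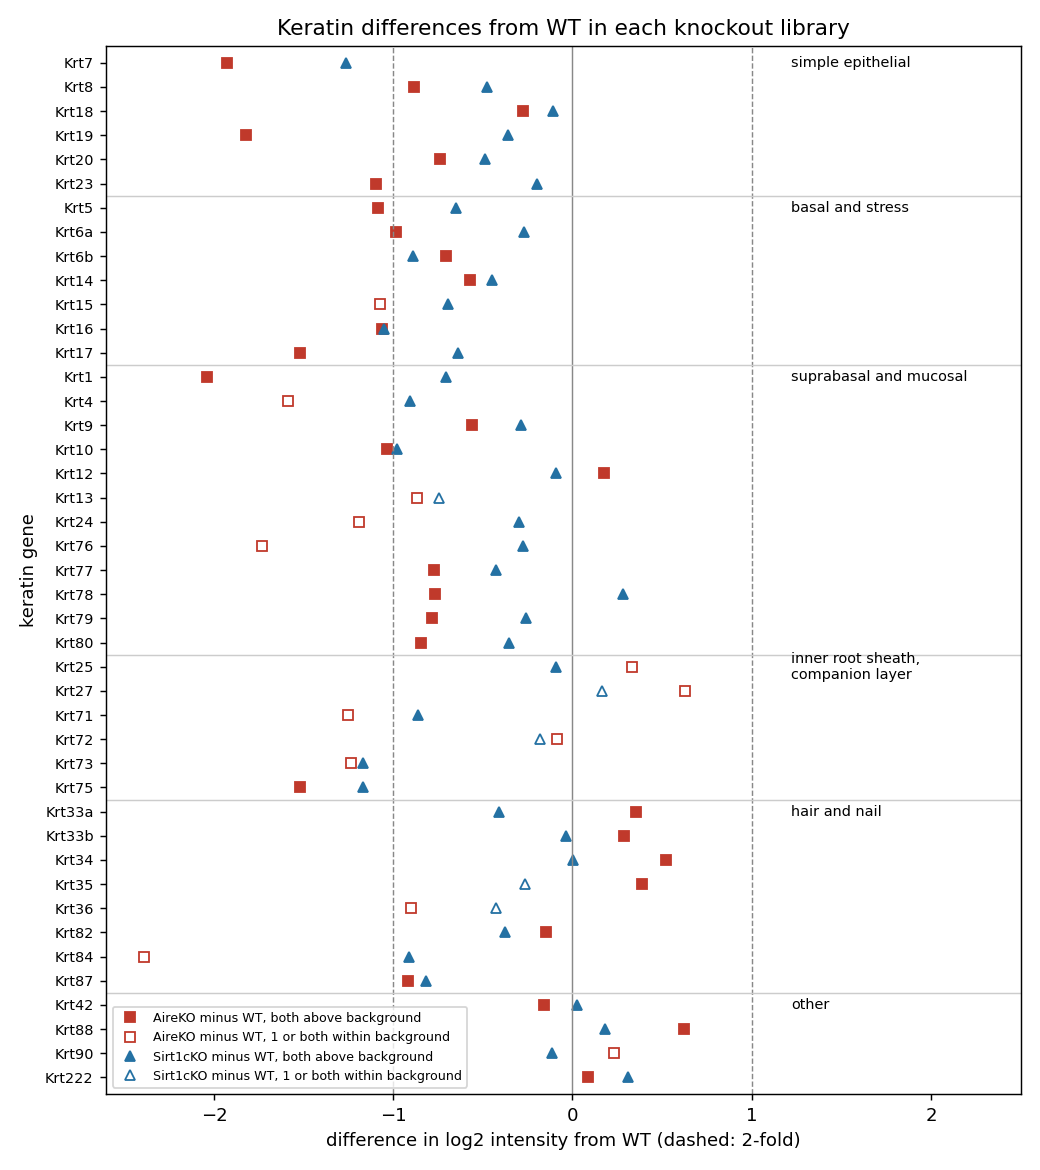
Difference in log2 intensity from WT for the 43 keratins above background in at least 1 library, AireKO as red squares and Sirt1cKO as blue triangles, open where 1 or both values lay within background and with dashed lines at 2-fold. Of the filled points, Krt1 lies farthest left in AireKO at -2.04 and Krt7 in Sirt1cKO at -1.26, and no point lies right of the upper 2-fold line.

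The keratins nearest to the 2-fold limit show how much the counts hang on it. In AireKO, Krt86 (-1.01), Krt10 (-1.03) and Krt16 (-1.06) were just inside it and Krt6a (-0.98), Krt87 (-0.92) and Krt36 (-0.90) just outside. In Sirt1cKO, Krt16 (-1.05) was just inside and Krt10 (-0.98), Krt84 (-0.91) and Krt4 (-0.91) just outside. Between the knockout libraries, Krt78 (1.05) was just inside and Krt23 (0.90), Krt24 (0.89) and Krt17 (0.88) just outside.

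Type II keratins had more calls than type I keratins. In AireKO 10 of 24 type II and 7 of 28 type I keratins were at least 2-fold lower, against 5.51% of all genes. Their medians were -0.90 and -0.10. In Sirt1cKO the counts were 3 of 24 and 1 of 28, against 1.13%, with medians of -0.45 and -0.23. With background as a bound, the AireKO counts were 7 of 24 and 5 of 28, against 4.62% of all genes. Krt26, Krt28, Krt31, Krt32, Krt39 and Krt40 of type I and Krt2, Krt74 and Krt86 of type II were within background throughout. In AireKO genes with a mean under 7 had a median of 0.23 and those with a mean of at least 7 of -0.22. The types were not matched for brightness, and the difference between them was not tested. Since the chains work in pairs, partners are set side by side by their differences from WT. Krt7 and Krt19 were lower in AireKO by nearly the same amount (-1.93 and -1.82) but not in Sirt1cKO (-1.26 and -0.36). Krt1 was farther below WT than Krt10 in AireKO, with -2.04 against -1.03, whereas in Sirt1cKO Krt1 was at -0.71 and Krt10 at -0.98. For Krt8 and Krt18 the type II partner was the lower in both, at -0.89 against -0.28 in AireKO and -0.48 against -0.11 in Sirt1cKO. Krt5 and Krt14 had the same order, with -1.09 against -0.57 and -0.65 against -0.45. The stress pair Krt6a and Krt16 matched in AireKO (-0.98 and -1.06) and differed in Sirt1cKO (-0.27 and -1.05). Krt75 and Krt17 matched in AireKO (both -1.52) and differed in Sirt1cKO (-1.17 and -0.64). Krt71 and its inner root sheath partner Krt25 were the pair farthest apart in AireKO, at -1.25 and 0.33, where both lay within background. With 1 library a genotype, no spread is at hand to judge how far partners must differ.

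**Figure D4:**
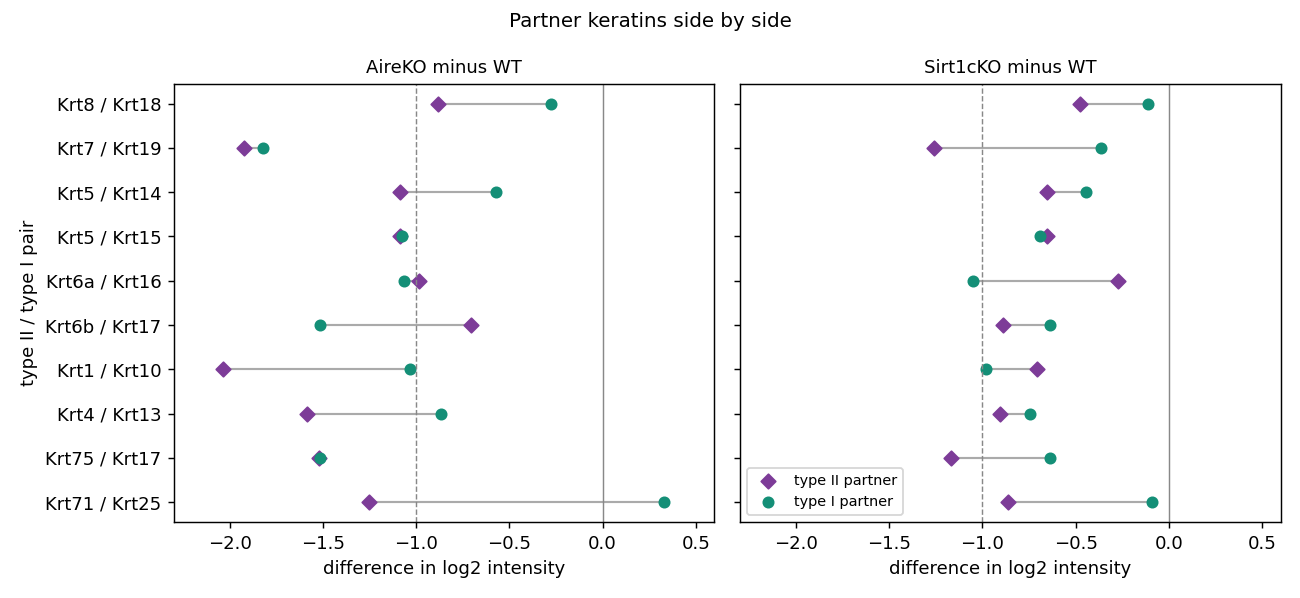
Difference in log2 intensity from WT for the type II (purple diamonds) and type I (green circles) member of 10 keratin pairs, AireKO on the left and Sirt1cKO on the right, with 2-fold lower dashed. Krt7 and Krt19 lie close together in AireKO, at -1.93 and -1.82, and apart in Sirt1cKO, at -1.26 and -0.36.

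The genes lie in 2 clusters, 27 of the 52 on chromosome 11 and 25 on chromosome 15, where Krt18 is the type I gene at the end of the type II cluster. In RefSeq's gene order (GRCm38.p6), several runs of neighbouring genes had differences of 1 sign. Whether such runs are longer than in other gene orders was not tested. Of all genes, 48.4% were below 0 in AireKO, 66.8% of those with a mean of at least 7 and 26.7% of those under 7. The runs were not matched for brightness. On chromosome 11 the 8 genes from Krt39 to Krt35, all type I hair keratins, were none of them below 0 in AireKO, and the 4 above background among them, Krt33a, Krt33b, Krt34 and Krt35, stayed above 0 under each scaling. The next 9, from the hair keratin Krt36 to Krt42, were all below 0, from -1.82 for Krt19 to -0.16 for Krt42, and centring turned Krt42 alone, to 0.11. Krt36 and Krt13 among them were within background in AireKO. Their WT values, 6.49 and 6.79, lay under the AireKO limit of 6.89, so the sign of their differences is not settled. On chromosome 15 the 5 genes Krt75, Krt6b, Krt6a, Krt5 and Krt71 were all below 0, between -0.71 and -1.52, and so were the 8 from Krt1 to Krt18, between -0.28 and -2.04. Neighbouring keratin genes are alike in sequence, and signal shared between probe sets was not tested as a part of this.

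**Figure D5:**
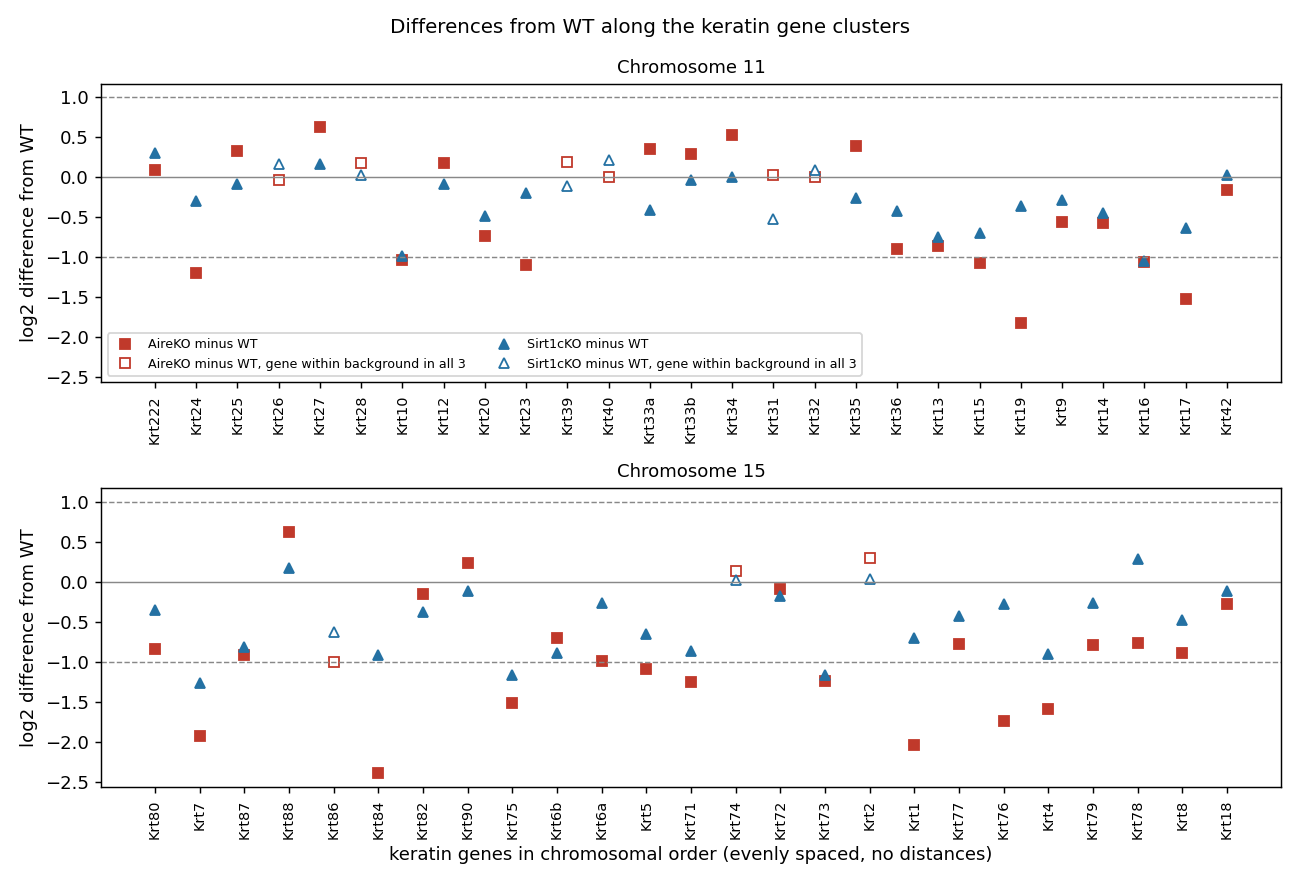
Difference in log2 intensity from WT for the 52 keratins in chromosomal order, evenly spaced, AireKO as red squares and Sirt1cKO as blue triangles, open where the gene was within background in all 3 libraries. On chromosome 11 the hair keratins Krt33a to Krt35 lie at or above 0 in AireKO and the genes from Krt36 to Krt42 below it, down to -1.82 for Krt19.

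The genes that hold keratin filaments in place were read beside the keratins. Of all genes, 5.51% were at least 2-fold lower in AireKO and 1.13% in Sirt1cKO. Of those with a mean of at least 7, the shares were 8.87% and 1.54%. Of the 15 other intermediate filament genes, 1 was at least 2-fold lower in AireKO, the nuclear lamina gene Lmna at -1.54, and 2 in Sirt1cKO, Lmna at -1.04 and the neuronal filament gene Prph at -1.14. Vim, the filament gene of mesenchymal cells, stood at 12.12, 12.23 and 11.99. The median of the 15 was -0.06 in AireKO and -0.17 in Sirt1cKO. Of 18 genes listed for keratin anchoring and crosslinking, which are genes of desmosomes, hemidesmosomes and linkers and the transcription factor Trp63, 3 were at least 2-fold lower in AireKO and none in Sirt1cKO, with medians of -0.46 and -0.12. The desmosomal linker Dsp stood at 11.74, 10.66 and 11.80, the desmosomal plaque gene Jup at 11.37, 10.02 and 11.20, and the desmosomal membrane gene Perp at 11.55, 10.40 and 11.52. AireKO was thus the low library for all 3, with WT and Sirt1cKO close together, and centring left 1 of the 3 past 2-fold. Of 16 genes of keratin bundling and the cornified envelope, 1 was lower in AireKO, Fam83h, which binds keratin filaments, at -1.04, and none in Sirt1cKO. That count (6.25%) and the 1 of 15 other intermediate filament genes (6.67%) lay near the share of all genes in AireKO. Involucrin (Ivl) stood at 9.11, 9.20 and 9.41 and loricrin (Lor) at 7.70, 7.44 and 7.79, so neither of these late markers of the epidermis was 2-fold apart in any comparison.

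Of 29 transcription factors known to act on keratin genes or in the epithelia that make them, 5 were at least 2-fold lower in AireKO, with a median of -0.43, and none in Sirt1cKO, with a median of -0.00. The 5 are 17.2% of the list, against 5.51% of all genes and 8.87% of those with a mean of at least 7. Elf3, a factor of epithelial differentiation, stood at 10.66 in WT, 9.28 in AireKO and 10.60 in Sirt1cKO. Foxn1, the master factor of thymic epithelium, also needed in hair, stood at 10.47, 9.43 and 9.99, and Foxq1, a hair factor, at 9.07, 7.86 and 8.72. Cebpa (-1.04) and Cebpb (-1.47), factors of epidermal differentiation, were the others, and Cebpb was within background in AireKO. All 5 were lowest in AireKO, and centring left 2 of them past 2-fold. Trp63, the master factor of stratified epithelium, was lowest in WT, with 9.82, 10.12 and 10.40. Hoxc13, which drives hair keratins, was within background in all 3 libraries.

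Markers of mTECs and of other cells were read beside the keratins. Of all genes, 5.51% were at least 2-fold lower in AireKO, 3.2% were higher and 48.4% were below 0. Of those with a mean of at least 7, 8.87% were lower and 66.8% were below 0. In Sirt1cKO 1.13% of all genes were lower. Of the 14 mature mTEC markers, Cldn3 (-1.16), Cldn4 (-1.23) and Ccl22 (-1.58) were at least 2-fold lower in AireKO and none in Sirt1cKO. In AireKO 12 of the 14 were below 0, and Cd80 (0.76) and Cd86 (0.70) were above it. The medians of the 14 were -0.49 in AireKO and -0.29 in Sirt1cKO. Their log2 values summed to 160.0 for WT, 153.4 for AireKO and 155.7 for Sirt1cKO. This sum and those that follow weigh dim and bright genes alike. Of 11 markers of keratinocyte-like cells, all above background in every library, 3 were lower in AireKO, namely Krt1 and Krt10, which are members here, and Lypd3 at -2.07. Their log2 values summed to 108.7, 100.0 and 105.8. Of 9 cortical epithelial markers, Prss16 (-1.11), Dll4 (-1.03) and Ctsl (-1.54) were lower in AireKO, while Psmb11, the defining proteasome subunit of the cortex, was within background there and stood at 6.74 in WT. In AireKO 6 of the 9 were below 0 (66.7%), near the share of genes with a mean of at least 7. Tbata (0.43), Ackr4 (0.15) and Cxcl12 (0.05, within background there) were above it. The sum over the 9 was 80.9, 77.3 and 79.6. Among 9 fibroblast markers Dcn was higher in AireKO, with 10.08 in WT, 11.98 in AireKO and 10.87 in Sirt1cKO, and Lum was within background in all 3 libraries. Pdgfrb was lower at -1.02, the defining gene Pdgfra was within background throughout, and the sum was 67.8, 70.8 and 67.9. No thymocyte marker of 13 was 2-fold apart, with sums of 88.5, 90.8 and 91.1 and Rag2, Cd3d, Ptcra and Dntt within background throughout. No endothelial marker of 8 was 2-fold apart above background, with sums of 51.8, 54.2 and 53.4 and Kdr and Emcn within background. Of 11 dendritic cell and macrophage markers, Lyz2 was lower in AireKO at -1.30, Clec9a was within background throughout, and the sums were 83.1, 83.0 and 81.1. The log2 of summed intensity, which bright genes set, was 15.94, 15.53 and 15.65 for mature mTEC markers. It was 13.96, 13.29 and 13.73 for keratinocyte-like, 13.66, 13.63 and 13.64 for cortical and 11.36, 12.44 and 11.67 for fibroblast markers. For thymocyte markers it was 10.80, 11.04 and 11.07, for endothelial 9.73, 9.89 and 9.95, and for dendritic and macrophage 12.58, 11.93 and 12.03. The part of any of these cells in the keratin differences was not tested.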

How the data were processed

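The authors deposited a linear-scale intensity per probe set from 3 arrays, 1 per genotype. The submitters' processing notes name RMA. Its version, the software, the annotation and the step back to a linear scale were not given in the sources used here. Log2 was taken here with no further normalization. The platform's table paired 21640 of 34760 probe sets with 1 gene symbol, 1321 with several and 11799 with none, and a gene took its single-symbol probe set with the highest mean, which gave 19937 genes. Each keratin had 1 such probe set. No column of values lacked a sample.

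A gene counted as lower or higher at 2-fold (1 on the log2 scale), with no test, since each genotype had 1 library. A fold against a value within background is a lower bound, taken from the background limit of that library. For the medians with background as a bound, each value within background was raised to its library's limit. A gene within background in both libraries then took the difference of the limits, so these medians are not bounds. The number of arrays limits the precision. Every keratin above background in at least 1 library could be named with its values, keratins within background were named only to account for all members, and of each other list up to 6 genes were named, those 2-fold apart from WT first and then the brightest. Epcam, Cd74, Fezf2, Cd80, Cd86, Ackr4, Cxcl12, Vim, Ivl, Lor, Trp63, Hoxc13, the checks of the labels and the defining markers within background were named outside this rule, with their values known. Members and lists were chosen with earlier results of these data known.

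Alternatives were quantile normalization, loess (span 0.3) and median centring of the libraries, the mean of a gene's probe sets, other filters, folds of 1.5 and 3, background at the 90th and 99th percentile, background as a bound, and the labels of the 2 knockout libraries exchanged. The counts over all 52 keratins and the brightness limit of 7 were added after the data were seen. The counting step was tested on simulated data. Python 3.11.15, numpy 2.4.6, pandas 2.3.3, statsmodels 0.14.6 and matplotlib 3.10.9 were used.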

Additional observations from a re-analysis of the deposited data

How the results depend on the processing

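At the 2-fold limit and with the labels as given, 7 of 16 keratins called lower in AireKO kept their call with quantile normalization, loess, centring and background as a bound (Krt1, Krt7, Krt17, Krt19, Krt75, Krt76 and Krt84), as did 3 of 4 in Sirt1cKO (Krt7, Krt73 and Krt75) and 2 of 5 between the knockout libraries (Krt1 and Krt19). The mean of all probe sets is the same value here, since each keratin has 1. In AireKO against WT, centring left 8 keratins lower, both among the 38 past the filter and among all 52 (median of the 52, -0.48). At 1.5-fold 25 of the 38 were lower and 1 higher, and 28 and 2 of the 52, and at 3-fold 6 were lower in either set. In Sirt1cKO against WT, 14 of the 38 and 16 of the 52 were lower at 1.5-fold and 0 at 3-fold. In Sirt1cKO against AireKO, the median of the 38 was 0.31, and 0.19 with loess, 0.14 with centring and 0.20 with background as a bound. With no filter it was that of all 52, 0.20, which was 0.0227 with centring and -0.00996 with background as a bound. The medians with background as a bound hold the difference of the background limits for genes within background in both libraries. In both sets 2 were lower and 11 higher at 1.5-fold, 0 higher at 3-fold, and 3 higher with background as a bound. The shares of all genes at 1.5-fold and 3-fold were not computed, so nothing is read from the counts at these limits. The 38 come from the filter that lets a gene in where it is high, so nothing is read from their counts either. With the labels of the knockout libraries exchanged, AireKO had 4 lower (medians -0.39 of the 38 and -0.33 of the 52) and Sirt1cKO 16 of the 38 (median -0.87) and 17 of the 52 (median -0.75). Sirt1cKO against AireKO then had 5 lower and 0 higher, with medians of -0.31 and -0.20, and Krt1 was at -1.33, Krt19 at -1.46, Krt76 at -1.46, Krt78 at -1.05 and Krt84 at -1.48. With background at the 99th percentile, 18 keratins were above it in AireKO. The exchanged labels only rename the libraries, the fold limits only move the threshold, and the cause of the other shifts was not tested. Signal over background limits the 14 keratins that were above it in only some libraries. No paired analysis was possible because each genotype has 1 library.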
